A study of Drosophila melanogaster with 10 samples.

Results

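The difference between sorted G2/M and G1 cells was compared between Drosophila S2 cultures with a high and with a low signal for Slimp, the gene of the mitochondrial protein SLIMP. A culture means the G2/M library and the G1 library that carry the same genotype label and replicate number. Cultures were selected on the signal of the Slimp probe set and not by genotype label: 2 of the 5 cultures read above a cut of 11 (log2) and 3 read below it, so all 10 libraries of the series were used, 4 in the high class and 6 in the low class. The high class held the cultures labelled knockdown 2 and control 3, and the low class held those labelled knockdown 3, control 1 and control 2. Values of single libraries or cultures are given in that order throughout.

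S2 is an embryonic fly cell line with haemocyte-like properties. The labels described wild-type S2 cells (control, 3 libraries in G2/M and 3 in G1) and SLIMP knockdown cells (2 in G2/M and 2 in G1), and the knockdown had been switched on with copper sulfate in stable lines. Whether the control cells received copper too was not stated, and MtnA, a metallothionein that copper induces, read 14.02 and 14.02 in G2/M and 14.03 and 14.00 in G1 in the high cultures, and 14.10, 14.13 and 14.13 in G2/M and 14.11, 14.15 and 14.12 in G1 in the low cultures. These values lay near the highest signals of the arrays (14.49 to 14.58), where a difference may be compressed, so they do not show whether copper exposure was equal. Live cells were stained with a DNA dye and sorted, and RNA was isolated with magnetic beads from 25000 cells per library, amplified for 15 cycles, labelled with biotin and hybridised to Affymetrix arrays. Signals are the log2 RMA values that the authors deposited, with array medians between 6.528 and 6.586. The labels do not say that the replicate numbers stand for separately grown cells. The p-values below therefore reflect only how far these libraries spread, and that spread may be technical.

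SLIMP arose in insects from mitochondrial seryl-tRNA synthetase, the enzyme that charges mitochondrial tRNA with serine, and has lost that activity. It is known to take part in mitochondrial protein synthesis and mitochondrial DNA maintenance, and SLIMP loss has been linked to the cell cycle in fly cells. Cells in G1 have yet to copy their DNA, and cells in G2/M have copied it and are preparing or carrying out division. Transcripts of mitotic genes such as cyclins, mitotic kinases and kinetochore proteins normally build up towards G2/M, while licensing genes act before DNA synthesis begins.

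Slimp read 12.53 and 12.51 in G2/M and 12.59 and 12.55 in G1 in the high cultures, and 8.97, 8.90 and 9.06 in G2/M and 8.68, 8.80 and 8.95 in G1 in the low cultures. The library closest to the cut from above therefore read 12.51 and the closest from below 9.06. The signal went against the labels, since a library pair labelled control and a pair labelled knockdown sat on each side, and genotype names below are only the labels of the libraries. Within a culture the G2/M minus G1 difference of Slimp was -0.06 and -0.04 in the high class and 0.29, 0.10 and 0.11 in the low class. These values chose the classes and are given without a test. The paralog SerRS-m, mitochondrial seryl-tRNA synthetase itself, had G2/M minus G1 differences of 0.07 and 0.31 in the high cultures and 0.42, 0.35 and 0.26 in the low cultures, which overlapped. The high minus low difference was -0.15 ± 0.11 (SE, limma adjusted p = 0.602).

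Probe sets were tested for a different G2/M minus G1 change in the high than in the low cultures, which is the interaction of phase and Slimp signal. Limma called 38 of 18769 probe sets at a Benjamini-Hochberg adjusted p under 0.05, or 0.202% of those tested. In 33 of them (0.176%) the phase difference was lower in the high cultures, and in 5 (0.0266%) it was higher. With arrays centred on their medians the split was 51 lower and 17 higher. The differences among the 33 ran between -1.56 and -0.78 (log2), against a median of -0.02 over all probe sets tested, and the 5 ran between 0.87 and 1.23. The calls fell to between 0 and 33 when 1 culture was left out: 33 without control 1, 1 without control 2, and 0 without control 3, without knockdown 2 or without knockdown 3. With all cultures, 2637 probe sets (14.0%) had an unadjusted p under 0.05, of which 1796 (9.57%) were lower and 841 (4.48%) were higher. This count is not corrected for the number of tests. It was 2540 without control 1, 2337 without control 2 and 1911 without knockdown 3.

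The most frequent pattern among the 33 was a transcript that was lower in G2/M than in G1 in the high cultures and did not pass the phase test in the low cultures, which held for 20 probe sets. Another 6 fell in the high and rose in the low cultures, 3 rose in the low cultures with no call in the high, 3 fell in both classes and 1 rose in both. For 32 of the 33 the G1 signal was higher in the high cultures, and for 29 the gap between the classes was larger in G1 than in G2/M. The interaction is the class gap in G2/M minus that in G1. Choosing negative interactions therefore favours a higher G1 signal or a lower G2/M signal in the high cultures. These counts describe the chosen probe sets, are no separate result about G1, and have no share over all probe sets beside them. Over all probe sets 3.31% fell and 1.93% rose between G1 and G2/M in the high cultures, and 8.61% fell and 12.6% rose in the low cultures. After cyclic loess scaling the split in the low cultures was 2114 lower and 1834 higher, against 1616 lower and 2363 higher as deposited. In bulk libraries fewer cells that hold a transcript and less of it per cell cannot be told apart.

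**Figure D1:**
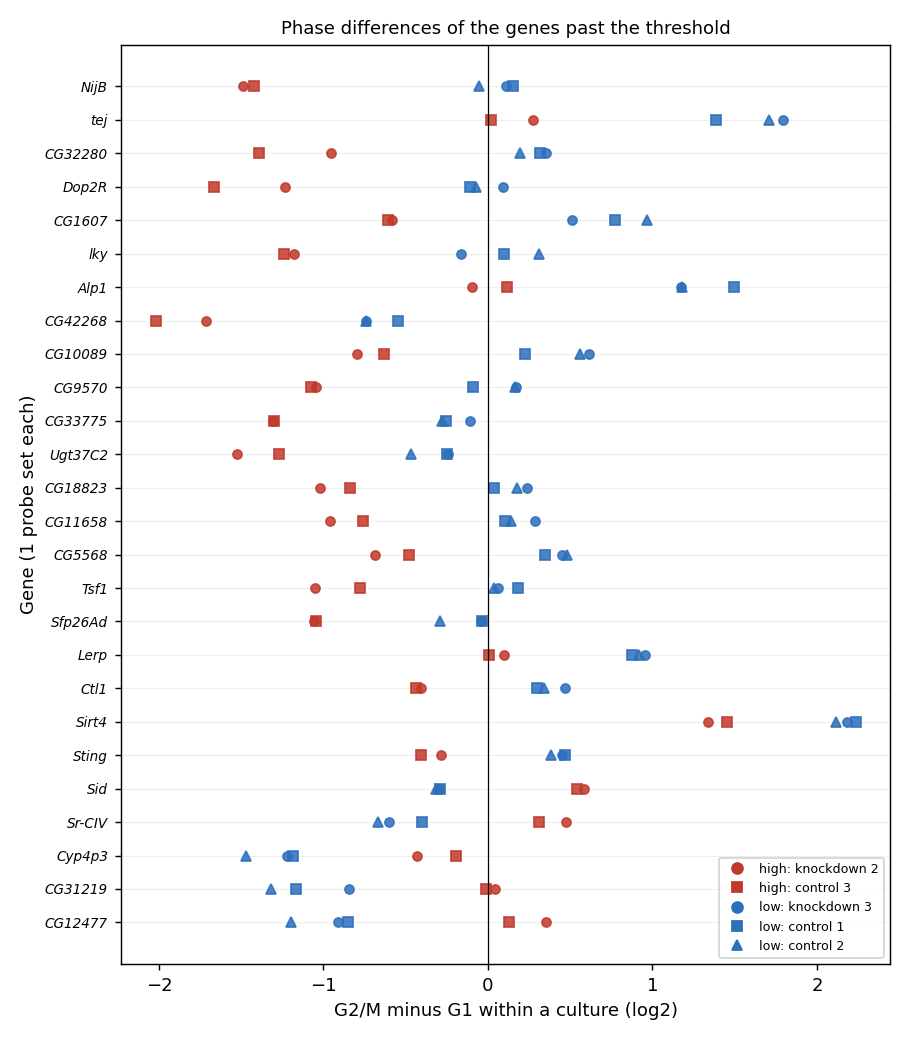
G2/M minus G1 difference (log2) of each culture for the 26 named genes past the interaction threshold, 1 probe set per gene, with high Slimp signal cultures in red and low ones in blue. Genes run down the page by high minus low difference, -1.53 for NijB at the top and 1.23 for CG12477 at the bottom, and in none of them do the 2 high cultures overlap the 3 low ones.

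NijB, a member of the ninjurin family of cell surface adhesion proteins, had the largest difference of a named gene. NijB read 5.45 and 5.15 in G2/M against 6.94 and 6.57 in G1 in the high cultures, and 5.18, 5.11 and 5.02 in G2/M against 5.06, 4.96 and 5.07 in G1 in the low cultures. The high G1 libraries thus stood apart from the other 8, and the G2/M minus G1 differences of -1.49 and -1.42 did not overlap those of 0.11, 0.15 and -0.05 in the low cultures. The G2/M to G1 fold was 0.365 in the high and 1.05 in the low cultures, with a difference of -1.53 ± 0.11 (SE, limma adjusted p = 0.00878). Its adjusted p was 0.0214 without control 1 and 0.0481 without control 2, and it lay between 0.059 and 0.276 with any other culture left out.

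Dop2R, a dopamine receptor of the D2 type that couples to G proteins, showed the same shape. Dop2R read 7.89 and 7.47 in G2/M against 9.12 and 9.13 in G1 in the high cultures, and 7.04, 7.17 and 7.14 in G2/M against 6.94, 7.28 and 7.22 in G1 in the low cultures. Both high G1 libraries were above all 8 others, and the high G2/M libraries were also above the low libraries of either phase. The G2/M to G1 fold was 0.366 in the high and 0.979 in the low cultures, with a difference of -1.42 ± 0.14 (SE, limma adjusted p = 0.0252). A further probe set of the gene passed as well, at -0.83 (adjusted p = 0.036), with a G2/M minus G1 difference of -0.89 in the high and -0.06 in the low cultures. CG32280 read 9.28 and 9.45 in G2/M against 10.24 and 10.84 in G1 in the high cultures, and 9.51, 9.41 and 9.51 in G2/M against 9.16, 9.10 and 9.31 in G1 in the low cultures. For CG32280 the G2/M libraries of the 2 classes lay close together, with a class gap of -0.11, while in G1 the high cultures were 1.35 above the low ones. The difference of the phase changes was -1.46 ± 0.14 (SE, limma adjusted p = 0.0252).

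The other named genes that fell in the high cultures with no call in the low ones were lky (-1.21 in the high and 0.08 in the low cultures), CG9570 (-1.06 and 0.08), CG33775 (-1.30 and -0.21), CG18823 (-0.93 and 0.15) and CG11658 (-0.86 and 0.18), each as mean G2/M minus G1 in the high and then the low cultures. Their high minus low differences ran between -1.29 for lky and -1.04 for CG11658, each with an adjusted p of 0.0252. Tsf1, a secreted iron-binding transferrin, and Sfp26Ad, annotated as a seminal fluid protein, were outside the naming rule and were added after their values were seen. Tsf1 had a G2/M minus G1 difference of -0.91 in the high and 0.09 in the low cultures, and Sfp26Ad had -1.05 and -0.12. For all of these genes the class gap was larger in G1 than in G2/M. CG18823 had the widest G1 gap of them, 2.32 above the low cultures, and still 1.24 in G2/M.

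Of the 33 lower probe sets, 11 have no gene symbol in the annotation. All 11 fell in G2/M in the high cultures, with G2/M minus G1 between -1.48 and -0.73 (log2), and their differences in the low cultures lay between -0.26 and 0.32. Their G1 signal was 1.25 to 2.03 above that of the low cultures, and their G2/M signal 0.23 to 1.03 above. Except for 1635900_at, which rose in the low cultures, and 1629404_at, which fell in them too, they share the shape of NijB and Dop2R. No gene name or role is given to them here. The largest interaction of all 38 was in this group, -1.56 ± 0.11 (SE, limma adjusted p = 0.00878) for probe set 1637864_at. In its case the signal was 7.90 and 7.60 in G2/M against 9.29 and 9.17 in G1 in the high cultures, and 7.21, 7.34 and 7.43 in G2/M against 7.06, 7.31 and 7.38 in G1 in the low cultures.

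**Figure D2:**
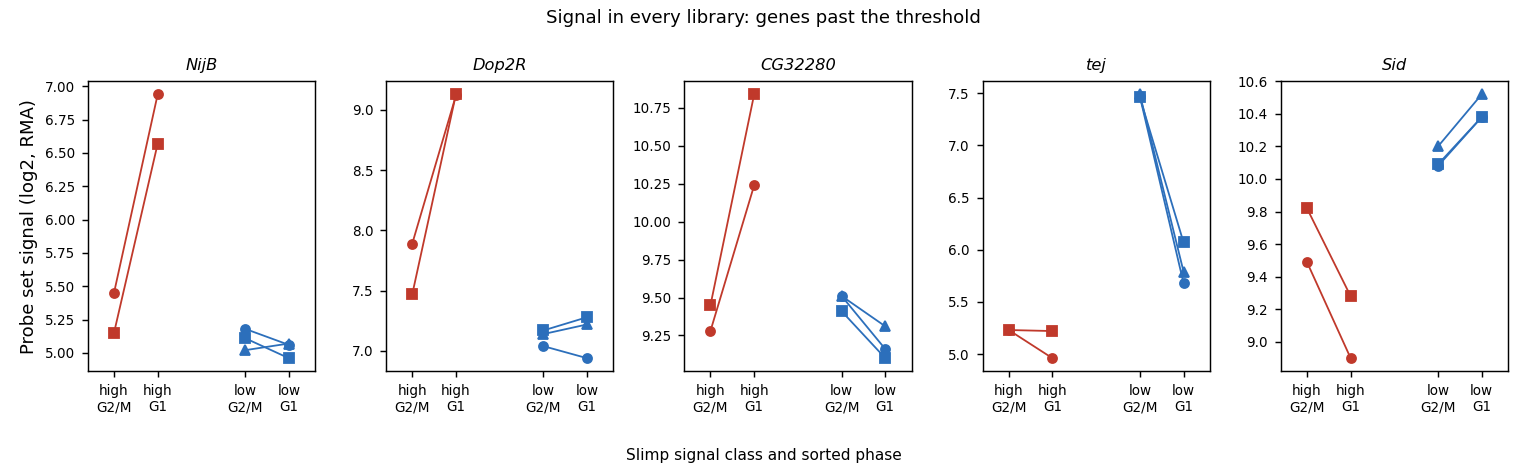
Signal (log2, RMA) of 5 genes in every library, with G2/M left of G1 within each Slimp signal class and 1 line per culture (high cultures in red, low ones in blue, symbols as in the plot of phase differences by culture). NijB, Dop2R and CG32280 stand out in the 2 high G1 libraries, tej stands out in the 3 low G2/M libraries, and the lines of Sid slope in opposite directions in the 2 classes. The vertical axes differ between panels and do not start at 0.

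A smaller number of genes rose in G2/M in the low cultures with no call in the high cultures. tej, which encodes a Tudor domain protein of the germline piRNA pathway, was the clearest. tej read 5.23 and 5.23 in G2/M against 4.96 and 5.22 in G1 in the high cultures, and 7.47, 7.46 and 7.49 in G2/M against 5.68, 6.07 and 5.79 in G1 in the low cultures. The low G2/M libraries were above all other libraries, and the G2/M to G1 fold was 1.11 in the high and 3.09 in the low cultures. The difference was -1.48 ± 0.15 (SE, limma adjusted p = 0.0252). Alp1, an alkaline phosphatase, had G2/M minus G1 differences of -0.10 and 0.11 in the high and 1.18, 1.50 and 1.18 in the low cultures, a difference of -1.28 ± 0.13 (SE, limma adjusted p = 0.0252). Its G1 signal was nearly the same in the 2 classes (a gap of 0.05) and its G2/M signal was -1.23 in the high relative to the low cultures. Lerp, a receptor that sorts lysosomal enzymes, was added after its values were seen and had 0.10 and 0.00 in the high and 0.96, 0.87 and 0.92 in the low cultures, a difference of -0.86 ± 0.10 (SE, limma adjusted p = 0.0252).

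Some transcripts changed in opposite directions. CG1607 fell in the high cultures (G2/M minus G1 of -0.59 and -0.61) and rose in the low ones (0.51, 0.78 and 0.97), a difference of -1.35 ± 0.14 (SE, limma adjusted p = 0.0252). CG10089 had -0.71 in the high and 0.47 in the low cultures, a difference of -1.18 ± 0.14 (SE, limma adjusted p = 0.0306), although a second probe set of the gene did not pass (-0.37, adjusted p = 0.171). CG5568 had -0.58 in the high and 0.43 in the low cultures. All of these changes passed the phase test within their class. Sting, a sensor of cyclic dinucleotides in innate immunity, and Ctl1, a choline transporter-like protein, were of the same kind and were added after their values were seen. Sting read -0.34 in the high and 0.43 in the low cultures (adjusted p of the difference = 0.0369), and Ctl1 -0.42 and 0.37 (adjusted p = 0.0377), as G2/M minus G1.

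In a further 4 probe sets the direction was shared and the size was not. Sirt4, a mitochondrial sirtuin, rose in both classes, with G2/M minus G1 of 1.34 and 1.45 in the high and 2.18, 2.23 and 2.11 in the low cultures (added after its values were seen). The G2/M to G1 fold was thus 2.63 in the high and 4.52 in the low cultures, and the difference of the log2 values was -0.78 ± 0.10 (SE, limma adjusted p = 0.0374). CG42268 fell in both, with G2/M minus G1 of -1.87 in the high and -0.68 in the low cultures, but its other probe sets gave interactions of -0.52 (adjusted p = 0.251) and 0.14 (adjusted p = 0.656). Its low G2/M signals were 3.80, 3.68 and 3.67, near the lowest signals of those arrays (3.01 to 3.11). Whether this floor limited its fall in the low cultures was not tested. Ugt37C2, which belongs to the UDP-glycosyltransferases that conjugate small molecules, had -1.52 and -1.27 in the high and -0.24, -0.25 and -0.47 in the low cultures. Of the probe sets that fell in both classes, 1 has no gene symbol.

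The 5 probe sets with a higher phase difference in the high cultures were all lower in G1 in the high than in the low cultures, and for all 5 the class gap was larger in G1 than in G2/M. Choosing positive interactions itself favours a lower G1 signal in the high cultures, so this is no separate result about G1. Sid, a stress induced DNase, rose in the high cultures and fell in the low ones. Sid read 9.49 and 9.82 in G2/M against 8.90 and 9.28 in G1 in the high cultures, and 10.08, 10.09 and 10.20 in G2/M against 10.38, 10.38 and 10.52 in G1 in the low cultures. All high libraries were below all low libraries, and the G2/M minus G1 differences of 0.58 and 0.54 in the high and -0.30, -0.29 and -0.32 in the low cultures gave 0.87 ± 0.09 (SE, limma adjusted p = 0.0252). The other 4 fell in the low cultures and were not called in the high ones. CG12477 had G2/M minus G1 of 0.24 in the high and -0.99 in the low cultures, and CG31219 had 0.02 and -1.11. Cyp4p3, a cytochrome P450, had -0.31 in the high and -1.29 in the low cultures, and Sr-CIV, a class C scavenger receptor of phagocytes, had 0.39 and -0.55. Their high minus low differences were 1.23, 1.13, 0.98 and 0.95, with adjusted p of 0.0252, 0.041, 0.0452 and 0.0366.

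Genes whose mean differences had opposite signs in the 2 classes were also named where they missed the threshold. daw, a ligand of the activin branch of TGF-beta signalling, had G2/M minus G1 of -0.66 and -0.25 in the high and 0.45, 0.90 and 1.04 in the low cultures, a difference of -1.25 ± 0.20 (SE, limma adjusted p = 0.0693). LpR1, a lipophorin receptor, had -0.65 and -0.26 in the high and 0.59, 0.57 and 1.32 in the low cultures, a difference of -1.28 ± 0.24 (SE, limma adjusted p = 0.103), and its other probe set gave 0.23 (adjusted p = 0.6). CG17283 had 0.06 and -0.02 in the high and -0.70, -1.01 and -1.32 in the low cultures, a difference of 1.03 ± 0.17 (SE, limma adjusted p = 0.0786). CG1695 had 0.11 and 0.04 in the high and -0.52, -0.77 and -1.10 in the low cultures, a difference of 0.88 ± 0.16 (SE, limma adjusted p = 0.103). The high values of both lay close to 0. In each of these 4 the phase difference passed in the low and not in the high cultures, and the difference between classes did not pass.

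**Figure D3:**
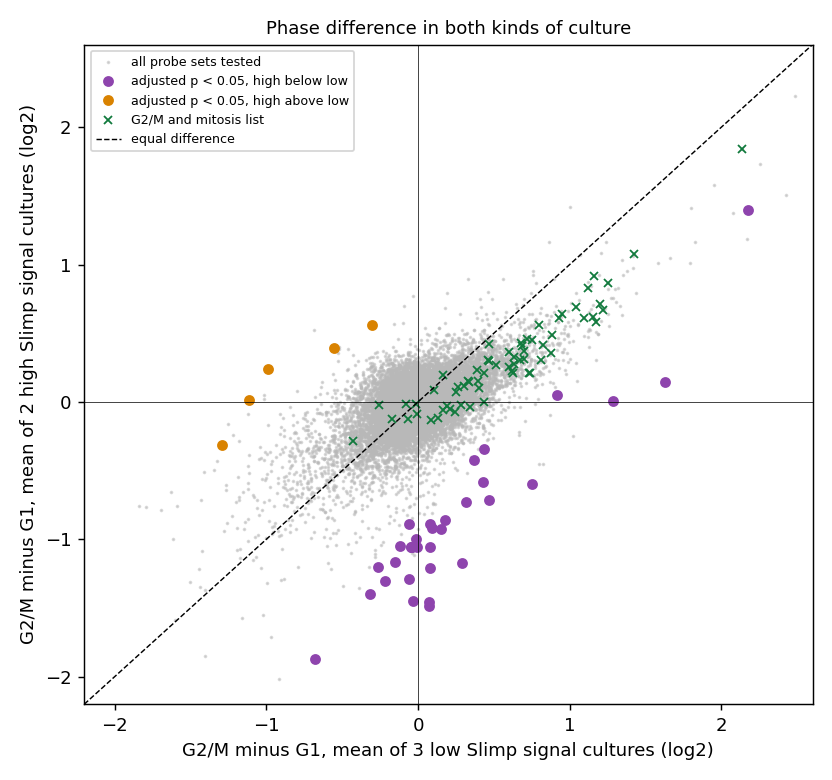
Mean G2/M minus G1 difference (log2) in the 2 high Slimp signal cultures against that in the 3 low ones for all 18769 probe sets tested, with the 33 probe sets called lower in purple, the 5 called higher in orange and the 64 genes of the G2/M and mitosis list as green crosses. The dashed line marks an equal difference, and most green crosses lie to the right of 0 and below that line.

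Genes of division and DNA replication were then described by list, with each gene taken at its probe set of highest mean. In the G2/M and mitosis list (cyclins, mitotic kinases, spindle and checkpoint genes) the median G2/M minus G1 difference over 64 genes was 0.29 and 0.24 in the high cultures and 0.62, 0.54 and 0.57 in the low cultures. All medians were above 0, and the low cultures did not overlap the high ones. In the high cultures 25 of 64 genes rose and 0 fell, and in the low cultures 50 rose and 2 fell. Over all 11981 named genes, 294 rose and 453 fell in the high cultures, and 1911 rose and 1060 fell in the low ones. The median interaction of the list was -0.29 (-0.22 after cyclic loess), against -0.04 over all 11981 named genes. None of the 64 passed the adjusted threshold for the interaction in limma, where 0.176% of probe sets were called lower. At an unadjusted p under 0.05, 38 genes were lower and 0 higher, beside 9.57% and 4.48% of all probe sets. The cultures did not overlap, with the high class lower, for 51 of the 64, beside 21.2% of all probe sets, and with the high class higher for 1, beside 11.1%.

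aurB, the kinase of the chromosomal passenger complex, had the smallest p of the mitosis list. aurB read 9.67 and 9.72 in G2/M against 9.15 and 9.08 in G1 in the high cultures, and 10.14, 10.13 and 10.27 in G2/M against 8.87, 9.06 and 9.09 in G1 in the low cultures. It rose in both classes, by 0.58 in the high and 1.17 in the low cultures, and the class gap lay in G2/M (-0.48) more than in G1 (0.11). The difference of the phase changes was -0.59 ± 0.11 (SE, limma adjusted p = 0.0954). Spc105R, a scaffold of the outer kinetochore, had 0.35 in the high and 0.88 in the low cultures and an interaction of -0.52 ± 0.10 (SE, limma adjusted p = 0.112). CycB, the mitotic cyclin B, was added as a familiar G2/M gene after values were seen. CycB read 10.10 and 10.15 in G2/M against 9.80 and 10.03 in G1 in the high cultures, and 10.39, 10.31 and 10.41 in G2/M against 9.64, 9.65 and 9.61 in G1 in the low cultures. Its interaction was -0.53 ± 0.10 (SE, limma adjusted p = 0.121). Over the whole list the median class gap was -0.25 in G2/M and 0.03 in G1.

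Kinetochore and centromere genes had medians of 0.30 and 0.28 in the high cultures and 0.65, 0.52 and 0.61 in the low cultures (19 genes, some of them also in the mitosis list). Of these, 9 rose in the high and 17 in the low cultures, beside 294 and 1911 of all 11981 named genes. A lower phase difference at an unadjusted p under 0.05 held for 14 (73.7%), beside 11.8% of all named genes. rod, a checkpoint protein that brings dynein to kinetochores, had 0.42 in the high and 0.82 in the low cultures (interaction -0.40, limma adjusted p = 0.17). The 11 mitotic kinesins were mixed: 3 rose in the high and 5 in the low cultures, and the list medians overlapped (0.21 and 0.21 in the high cultures and 0.17, 0.25 and 0.11 in the low cultures). Interactions were negative for 6 kinesins and positive for 5, up to 0.23. At an unadjusted p under 0.05, 4 (36.4%) were lower, beside 11.8% of all named genes. Klp67A, a kinesin that limits microtubule length in the spindle, had 0.61 in the high and 1.09 in the low cultures (interaction -0.48, adjusted p = 0.129), and Klp61F, the kinesin that pushes spindle poles apart, had 0.26 and 0.60 (interaction -0.34, adjusted p = 0.187).

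In the G1/S and DNA replication list the median G2/M minus G1 difference was 0.05 and 0.09 in the high cultures and 0.46, 0.23 and 0.54 in the low cultures (44 genes). In the high cultures 2 genes rose and 3 fell, and in the low cultures 28 rose and 0 fell. Over all 11981 named genes, 294 rose and 453 fell in the high cultures, and 1911 rose and 1060 fell in the low ones. The median interaction was -0.36, and none passed the adjusted threshold. At an unadjusted p under 0.05, 27 of 44 (61.4%) were lower, beside 11.8% of all named genes. Cdc6, which loads the replicative helicase at origins, came nearest. Cdc6 read 7.30 and 7.01 in G2/M against 6.80 and 6.90 in G1 in the high cultures, and 7.59, 7.68 and 8.11 in G2/M against 6.30, 6.54 and 7.01 in G1 in the low cultures. The low G2/M libraries were above all others, and the interaction was -0.87 ± 0.14 (SE, limma adjusted p = 0.07). Orc4, a subunit of the origin recognition complex, had -0.04 in the high and 0.67 in the low cultures (interaction -0.71, adjusted p = 0.12). Mcm2, a subunit of the helicase itself, was added after values were seen and had 0.05 and 0.01 in the high and 0.85, 0.46 and 0.82 in the low cultures (interaction -0.68, adjusted p = 0.121).

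**Figure D4:**
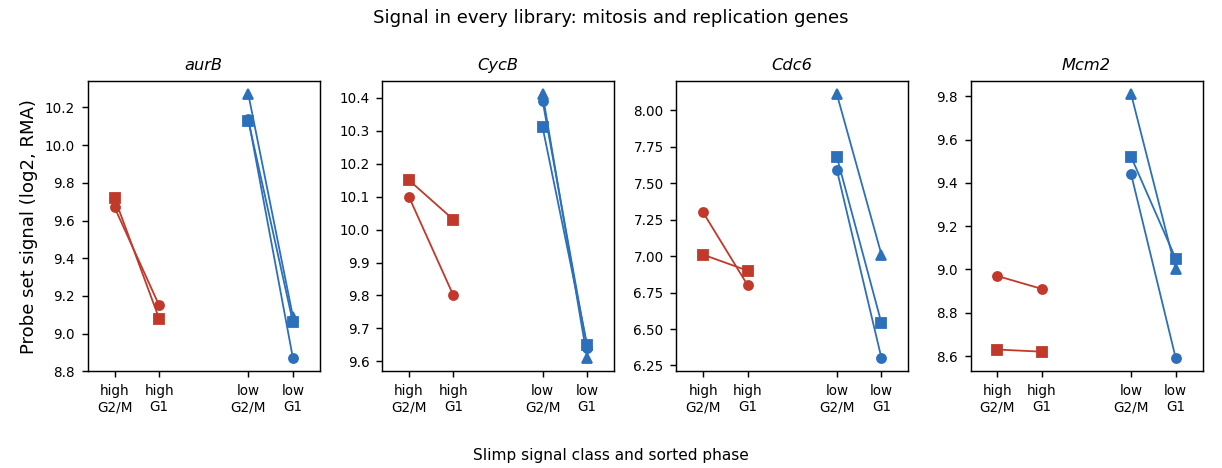
Signal (log2, RMA) of 4 genes of mitosis and replication in every library, with G2/M left of G1 within each Slimp signal class and 1 line per culture (high cultures in red, low ones in blue). For aurB and Cdc6 the lines of the low cultures are steeper, and the limma adjusted p of the difference between classes was 0.0954 for aurB and 0.07 for Cdc6. The vertical axes differ between panels and do not start at 0.

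The Myb-MuvB and dREAM list, a chromatin complex that controls cell cycle genes, had medians of 0.07 and 0.14 in the high cultures and 0.34, 0.29 and 0.29 in the low cultures (12 genes), with 1 gene that rose in the high and 7 in the low cultures. lin-52 was the gene that rose in both, by 0.59 in the high and 1.21 in the low cultures (interaction -0.62, limma adjusted p = 0.0896). Nuclear pore genes had medians of 0.13 and 0.20 in the high cultures and 0.46, 0.37 and 0.36 in the low cultures (26 genes). Of them 6 rose in the high and 20 in the low cultures, beside 294 and 1911 of all 11981 named genes. A lower phase difference at an unadjusted p under 0.05 held for 12 (46.2%), beside 11.8% of all named genes. Ndc1, a membrane protein that anchors the pore, had 0.73 in the high and 1.31 in the low cultures (interaction -0.58, adjusted p = 0.118), and Nup160, a scaffold nucleoporin, had 0.23 and 0.72 (interaction -0.49, adjusted p = 0.125).

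The spread of the phase differences over all probe sets moved with these lists: its SD was 0.23 and 0.25 in the high cultures and 0.30, 0.28 and 0.31 in the low cultures. Its part in the smaller list medians was not tested. Counts of list members depended on how the spread was modelled. With limma's intensity trend, 617 probe sets (3.29%) passed the interaction, among them 18 of the mitosis list, 14 of the replication list and 7 of the nuclear pore list, all lower. With only probe sets of mean signal above 6 tested, 211 of 11002 (1.92%) passed, among them 7, 3 and 2 of the same lists.

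**Figure D5:**
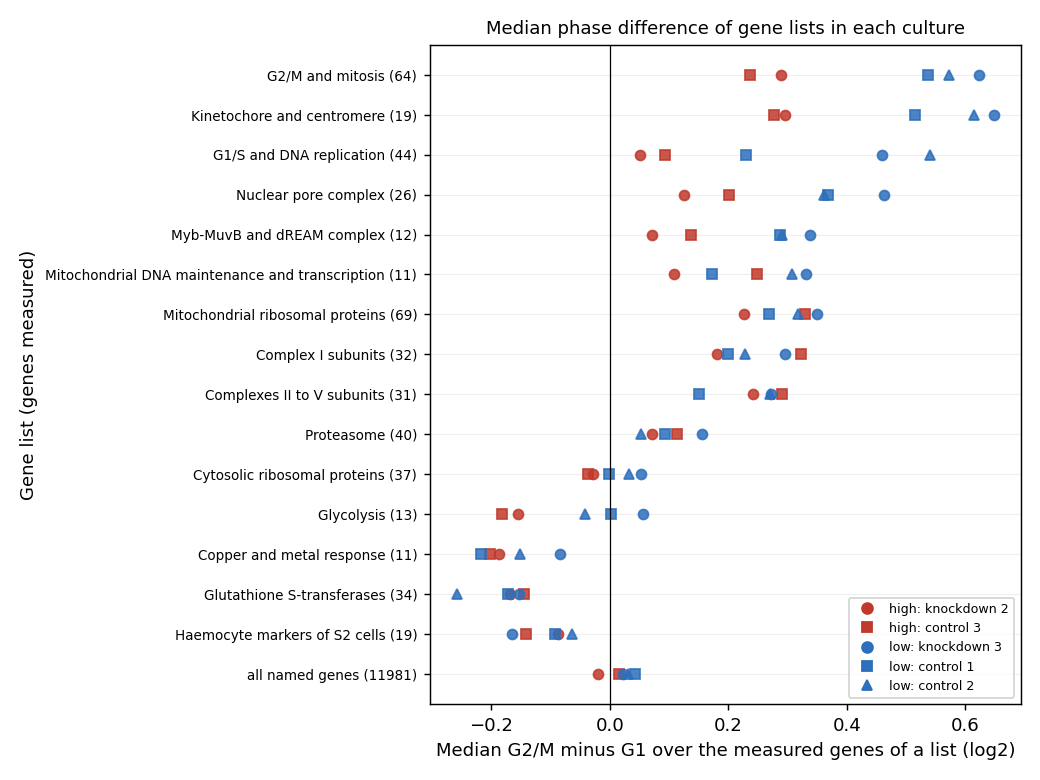
Median G2/M minus G1 difference (log2) over the measured genes of 15 lists, and over all 11981 named genes, in each culture, with high Slimp signal cultures in red and low ones in blue and the number of genes measured in brackets. The mitosis, kinetochore, replication, nuclear pore and dREAM medians are lower in both high cultures than in any low culture, as are those of glycolysis, cytosolic ribosomal proteins and all named genes, while those of respiratory complexes and mitochondrial ribosomal proteins overlap.

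The medians of 4 lists of mitochondrial genes overlapped between the classes, and that of mitochondrial aminoacyl-tRNA synthetases did not. Mitochondrial ribosomal proteins, which make up the ribosome of the organelle, had medians of 0.23 and 0.33 in the high cultures and 0.35, 0.27 and 0.32 in the low cultures (69 genes). They rose in G2/M in 19 genes in the high and 50 in the low cultures, with none falling. Of all 11981 named genes, 294 rose in the high and 1911 in the low cultures. The median interaction of the list was -0.03. This median was 0.03 after cyclic loess, so its sign depends on the scaling. mRpL9 had the smallest p, with 0.44 in the high and 0.85 in the low cultures (interaction -0.41, limma adjusted p = 0.15). For 32 subunits of complex I the medians were 0.18 and 0.32 in the high cultures and 0.30, 0.20 and 0.23 in the low cultures, and for 31 subunits of complexes II to V they were 0.24 and 0.29 in the high cultures and 0.27, 0.15 and 0.27 in the low cultures. None of these 32 and 31 genes had an interaction at an unadjusted p under 0.05.

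Mitochondrial DNA maintenance and transcription genes rose in 0 of 11 cases in the high and 6 in the low cultures, beside 294 and 1911 of all 11981 named genes. Their medians were 0.11 and 0.25 in the high cultures and 0.33, 0.17 and 0.31 in the low cultures. Although these medians overlapped, the interaction was negative for all 11, beside 7098 of all 11981 named genes. The median interaction was -0.145 (-0.071 after cyclic loess), beside -0.042 (-0.012) over all named genes. At an unadjusted p under 0.05, 3 (27.3%) were lower, beside 11.8% of all named genes, and none passed the adjusted threshold. PolG1, the catalytic subunit of the mitochondrial DNA polymerase, had 0.15 in the high and 0.55 in the low cultures (interaction -0.40, limma adjusted p = 0.189), and mTerf3, a regulator of mitochondrial transcription, had 0.08 and 0.33 (interaction -0.25, adjusted p = 0.299). The 14 mitochondrial aminoacyl-tRNA synthetases had medians of 0.07 and 0.09 in the high cultures and 0.17, 0.21 and 0.11 in the low cultures. These were lower in both high cultures than in any low one. At an unadjusted p under 0.05, 2 of these synthetases (14.3%) were lower, near the 11.8% of all named genes. Their median interaction was -0.06 as deposited and 0.01 after cyclic loess. AsnRS-m, which charges tRNA with asparagine, had 0.29 in the high and 0.81 in the low cultures (interaction -0.52, adjusted p = 0.15). The 15 cytosolic synthetases had medians of -0.13 and -0.10 in the high cultures and -0.07, -0.07 and -0.05 in the low cultures, also without overlap. None had an interaction at an unadjusted p under 0.05, and the median interaction was -0.05 (-0.01 after cyclic loess).

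Among 11 copper and metal genes 3 fell in the high and 5 in the low cultures, beside 453 and 1060 of all 11981 named genes. A lower phase difference in the high cultures at an unadjusted p under 0.05 held for 3 (27.3%), beside 11.8% of all named genes. ZnT35C, a zinc transporter, came nearest to the threshold. ZnT35C read 6.72 and 6.62 in G2/M against 8.07 and 7.98 in G1 in the high cultures, and 8.49, 8.72 and 8.84 in G2/M against 8.79, 8.94 and 9.49 in G1 in the low cultures. It was lower in the high cultures in either phase. It fell in both classes, with G2/M minus G1 of -1.35 in the high and -0.39 in the low cultures, and gave an interaction of -0.96 ± 0.14 (SE, limma adjusted p = 0.0599). Ccs, the copper chaperone of superoxide dismutase, had -0.26 in the high and 0.09 in the low cultures (interaction -0.35, adjusted p = 0.2). Among 13 glycolytic genes, 5 (38.5%) had a lower phase difference at an unadjusted p under 0.05, beside 11.8% of all named genes. Pgi, which interconverts glucose and fructose phosphates, had -0.17 in the high and 0.34 in the low cultures (interaction -0.52, adjusted p = 0.0929), and Mpc1, a subunit of the mitochondrial pyruvate carrier, had 0.27 and 0.74 (interaction -0.47, adjusted p = 0.125).

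Of 23 Imd and Toll genes, 1 was higher and 4 (17.4%) lower at an unadjusted p under 0.05. Over all 11981 named genes, 470 were higher and 1411 (11.8%) lower. pirk, a brake on Imd signalling, fell in both classes, with G2/M minus G1 of -0.68 and -0.41 in the high and -1.26, -1.08 and -1.23 in the low cultures (interaction 0.64, limma adjusted p = 0.103). PGRP-LF, a receptor-like inhibitor of the same pathway, fell in both as well, with -0.62 in the high and -0.24 in the low cultures (interaction -0.38, adjusted p = 0.163). Of 34 glutathione S-transferases, 4 fell in the high and 14 in the low cultures, beside 453 and 1060 of all 11981 named genes. For the interaction, 2 were higher and 2 (5.88%) lower at an unadjusted p under 0.05. GstD6 had -0.76 in the high and -1.59 in the low cultures (interaction 0.83, adjusted p = 0.17). GstZ1 went the other way, with 0.12 and 0.42 (interaction -0.29, adjusted p = 0.274). Gclc, the catalytic subunit of the enzyme that starts glutathione synthesis, is not a transferase and was named for the antioxidant and glutathione list. It had -0.40 in the high and -0.83 in the low cultures (interaction 0.43, adjusted p = 0.187).

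Among markers of the labelled cell type, Hml had a mean signal of 11.45 (log2) and Pxn, Col4a1 and SPARC 11.83, 13.23 and 13.01, over all 10 arrays. Lower means were those of vkg and eater (11.20 and 11.01), srp, crq and Ppn (9.66, 9.31 and 9.24) and NimC1 (7.68). Of these, srp, crq, Ppn and NimC1 read below the neuronal marker elav (10.26). The mean level of the 19 haemocyte markers was 8.96 to 9.12 in G2/M and 9.11 to 9.19 in G1 in the high cultures, and 9.10 to 9.16 in G2/M and 9.29 to 9.33 in G1 in the low cultures. Of them 4 had a higher phase difference in the high cultures at an unadjusted p under 0.05 and none a lower one. Over all 11981 named genes, 470 were higher and 1411 (11.8%) lower. Ppn, a matrix protein made by haemocytes, had 0.25 in the high and -0.32 in the low cultures (interaction 0.57, limma adjusted p = 0.126). The 17 markers of other cell types averaged 6.32 to 6.39 in G2/M and 6.33 to 6.38 in G1 in the high cultures, and 6.47 to 6.53 in G2/M and 6.39 to 6.42 in G1 in the low cultures. Among these, vas, repo, Lsp2 and Yp1, which mark germ cells, glia, fat body and female fat body, had mean signals of 4.56, 4.11, 4.08 and 4.79, while tj, a marker of gonadal soma, had 5.96 and the neuronal markers nSyb and elav had 7.15 and 10.26. Of the 17, 2 had a higher and 2 (11.8%) a lower phase difference in the high cultures at an unadjusted p under 0.05. The share of lower ones equalled that of all named genes (11.8%), and interactions ran up to 0.36. bam, a germline differentiation gene and the one with the smallest p, had G2/M minus G1 of 0.13 and -0.31 in the high and 0.95, 0.83 and 0.84 in the low cultures (interaction -0.96, adjusted p = 0.059). The part of these markers in the results was not tested.

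RNA quality was read from the array control probe sets as 3′ minus 5′ signal (log2). The G2/M minus G1 change of that measure was -0.07 and -0.19 in the high cultures and -0.10, 0.03 and 0.02 in the low cultures for actin. For GAPDH it was 0.19 and -0.02 in the high and 0.16, 0.11 and 0.24 in the low cultures, and for eIF-4a it was 0.19 and 0.01 in the high and 0.03, 0.11 and -0.04 in the low cultures. In this change the classes overlapped for all 3 transcripts, but some levels of the measure did not overlap. For actin in G1 it was 0.59 and 0.65 in the high and 0.46, 0.46 and 0.35 in the low cultures. For eIF-4a in G1 it was 1.19 and 1.28 in the high and 1.43, 1.32 and 1.37 in the low cultures. For GAPDH in G2/M it was 1.12 and 1.04 in the high and 1.31, 1.18 and 1.28 in the low cultures. The other levels overlapped, and the part of RNA quality in the results was not tested.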

How the data were processed

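The 10 arrays were analysed from the log2 probe set values that the authors deposited. Per the submitters' processing notes these came from RMA, whose version is not given in the sources used here. The method forces all arrays to 1 distribution, so a shift shared by most transcripts would not show. Of 18952 probe sets, 183 array controls were left out and 18769 tested whatever their brightness. By the platform annotation 13646 of them had 1 symbol, 402 several and 4721 none. Symbols were updated through RefSeq Release 6 gene identifiers for 13543 and kept for 103, and only probe sets with 1 symbol name a gene in the text (11981 genes).

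G2/M minus G1 was taken within each culture, and the differences were compared between the classes with limma 3.58.1 in R 4.3.3 (lmFit and eBayes, 2-sided, residual df 3, prior df 4.52, Benjamini-Hochberg over all probe sets, threshold 0.05). The fit was tested on simulated data. The pairing by label and number was checked by correlating deviations from the class means. In the low cultures the 2 libraries of a culture correlated at 0.331 to 0.393, and libraries of different cultures at -0.246 to -0.11. Deviations within a class and phase cancel out over its cultures, so positive values within cultures force negative ones between them. The negative values are therefore no separate evidence for the pairing. In the high class the value is 0.195 and its 2 cultures mirror each other by construction.

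The text names, in each direction, up to 15 of the largest differences among called genes with non-overlapping cultures, up to 2 genes of smallest p for each of 27 lists with no call, and up to 5 genes whose mean phase differences had opposite signs in the classes, with a mean signal above 6. Others are marked as added. Members, classes and lists were chosen with earlier results of these data known. Alternatives were no replicate block, cyclic loess, median centring, a mean above 6, an intensity trend, a robust prior, a genotype covariate and leaving out each culture. The number of arrays limits the precision. No sequences were used here.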

Additional observations from a re-analysis of the deposited data

Results flagged for a closer look

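The difference between G2/M and G1 differed between high and low Slimp signal cultures in limma's test of the interaction for 38 probe sets, and these results are listed because that difference was itself tested. The high minus low differences (log2, all with non-overlapping cultures) were -1.53 for NijB, -1.48 for tej, -1.46 for CG32280, -1.42 for Dop2R, -1.35 for CG1607, -1.29 for lky, -1.28 for Alp1 and -1.19 for CG42268. They were -1.18 for CG10089, -1.14 for CG9570, -1.09 for CG33775, -1.08 for Ugt37C2, -1.08 for CG18823, -1.04 for CG11658 and -1.01 for CG5568. The higher ones were 1.23 for CG12477, 1.13 for CG31219, 0.98 for Cyp4p3, 0.95 for Sr-CIV and 0.87 for Sid. All rest on 2 high and 3 low cultures, and no group had enough libraries to look for single outlying samples.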

How the results depend on the processing

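The interaction count was 38 as reported, 31 in a 4-group fit with no replicate block (1 higher, 30 lower, 23 of them shared), 39 after cyclic loess, 37 with a robust prior and 35 with genotype label as a covariate. It was 68 with arrays centred on their medians (17 higher, 51 lower), 211 with probe sets of mean signal above 6 and 617 with an intensity trend. Leaving out 1 culture gave 0 to 33 interaction calls, 0 without control 3, knockdown 2 or knockdown 3, with 1784 to 2553 probe sets at an unadjusted p under 0.05. G2/M against G1 in the high cultures gave 985 calls, 1873 with the filter on mean signal, 673 with no replicate block and 29 to 880 with 1 culture left out (35 without control 3, 29 without knockdown 2, 628 without knockdown 3). Where a high culture was left out, the lone high culture was assumed to vary like the low ones. In the low cultures the count was 3979, 3278 with no replicate block and 2005 to 3664 with 1 culture left out, lowest without knockdown 3 and next without control 2 (2206). Of the 20 genes named by rule as called, 11 passed with no replicate block, 19 after cyclic loess, 20 with centred arrays, all 16 that were tested with the filter, 20 with the trend, 19 with the robust prior and 17 with the genotype covariate. Of the 58 genes named by rule as not called, 2 passed with centred arrays, 18 of the 54 tested passed with the filter, 27 with the trend and 3 with the genotype covariate, and none did after cyclic loess, with the robust prior or with no replicate block. None of these 20 and 58 genes changed sign under any of these settings, with each culture left out included. The 20 were chosen for cultures that do not overlap, so leaving out a culture could not reverse their sign. The same holds for those of the 58 whose cultures do not overlap. Of the 20, 17 passed without control 1, 1 without control 2 and 0 without knockdown 3. The genes added after their values were seen were not run. Centring and cyclic loess moved the median interaction of all probe sets from -0.023 to -0.015 and -0.001 (log2). With 2 against 3 cultures and 3 residual degrees of freedom, the number of arrays limits what could be called.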

Other observations

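Lists of protein synthesis and turnover had median interactions (high minus low difference of G2/M minus G1, log2) near that of all named genes, -0.04. The median was -0.05 for 37 cytosolic ribosomal proteins, 0.00 for 40 proteasome subunits and 0.01 for 20 genes of tRNA and snoRNA processing and ribosome biogenesis, and no gene of these lists passed the limma threshold. RpL37-2, a protein of the large ribosomal subunit, had G2/M minus G1 of 0.04 in the high and 0.36 in the low cultures (interaction -0.32, adjusted p = 0.241). Ns4, a member of the nucleostemin family of GTPases, had 0.00 in the high and 0.34 in the low cultures (interaction -0.34, adjusted p = 0.19). Prosalpha6T, a testis form of a proteasome core subunit, had 0.23 in the high and -0.19 in the low cultures (interaction 0.41, adjusted p = 0.219).

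Stress lists gave medians of 0.01 (12 heat shock proteins), -0.02 (18 ATF4 and amino acid stress genes), 0.04 (15 antioxidant and glutathione enzymes), -0.12 (20 autophagy genes), -0.11 (22 DNA damage and apoptosis genes) and -0.02 (16 ecdysone response genes), again with no limma call. Hsp27, a small heat shock protein, had G2/M minus G1 of -0.16 in the high and 0.16 in the low cultures (interaction -0.32, adjusted p = 0.248). Nmdmc, a mitochondrial enzyme of folate metabolism, had -0.04 in the high and 0.30 in the low cultures (interaction -0.34, adjusted p = 0.308). Sod3, an extracellular superoxide dismutase, had 0.25 in the high and -0.09 in the low cultures (interaction 0.34, adjusted p = 0.194). Atg3, an enzyme that lipidates Atg8, had 0.02 in the high and 0.37 in the low cultures (interaction -0.35, adjusted p = 0.217), and egr, the fly tumour necrosis factor, had 0.41 in the high and 0.12 in the low cultures (interaction 0.29, adjusted p = 0.24). In the DNA damage and apoptosis list of egr, 5 interactions were positive and 17 negative. Corp of that list had -0.165 in the high and 0.29 in the low cultures (interaction -0.46, adjusted p = 0.286). ImpE3, an ecdysone-induced gene, had 0.19 in the high and 0.46 in the low cultures (interaction -0.27, adjusted p = 0.273).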
